A study of Homo sapiens with 6 samples.

Results

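The MAGE genes were followed through 4 total RNA-seq and 2 PRO-seq libraries of K562, a human chronic myelogenous leukemia cell line. A transcript counted in the files was taken as a member if the annotation gave it a protein-coding gene whose symbol starts with MAGE. This gave 33 transcription units (TUs) of 32 genes, among 37339 TUs that could be matched to the annotation and 42371 that were counted. The MAGEA, MAGEB and MAGEC families, known as cancer-testis antigens, held 25 TUs of 24 genes (11 MAGEA, 11 MAGEB and 3 MAGEC TUs). The MAGED, MAGEE, MAGEF and MAGEH families, known for expression in many tissues, held 8 TUs of 8 genes (4, 2, 1 and 1). All members but MAGEF1, on chromosome 3, lie on chromosome X. MAGEA3, MAGEA9 and MAGEL2 had no counted transcript that matched the annotation and were not analysed here, unless the second of the MAGEA9B transcripts, whose name is uncertain, is that of MAGEA9.

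All libraries came from untreated cells of the same flask, grown in RPMI-1640 with fetal bovine serum, so K562 is the only genotype and p-values measure the spread between libraries, which may be technical. Total RNA-seq, with ribosomal RNA removed, measures the RNA present in the cells, and PRO-seq sequences the nascent RNA of engaged polymerases along the TU. Counts on TUs ranged from 5732780 to 9002746 in RNA-seq and were 6993816 and 7245632 in PRO-seq. RNA-seq libraries 1 and 3, and 2 and 4, differed less from each other (a mean chi-square of 1.12 per TU for both pairs, where 1 is expected from counting error alone) than the other pairs did (1.74 to 2.11). Levels are given as TPM, in which counts are divided by exon length in RNA-seq, or by the span of the TU less 1000 bp in PRO-seq, and scaled to a total of 1000000 per library. All 11 K562 markers on a list of erythroid and leukemia genes had at least 10 RNA-seq counts, and together they reached 11929 to 12834 TPM. Of 9 germ cell markers, 6 were counted, none with 10 RNA-seq counts, and together they reached 0.129 to 0.756 TPM, with DAZL at 0. Of 7 markers of other blood, stromal and epithelial cells, 5 were counted. EPCAM, an epithelial adhesion gene, stood at 119.8 TPM and the other 4 at 1.36 TPM or less. In a bulk sample, fewer cells that express a gene and less RNA per cell cannot be told apart.

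MAGE proteins share a MAGE homology domain, and many of them bind RING-type E3 ubiquitin ligases and shape their activity or choice of substrate. The MAGEA, MAGEB and MAGEC genes are normally expressed in the germ line of the testis, are silenced in most other tissues with methylated promoters, and are switched on in many tumours, whose cells can then be recognised by T cells. The MAGED, MAGEE, MAGEF and MAGEH genes are active in many normal tissues, including the nervous system.

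The sequences just upstream of the transcript starts are shown for 4 cancer-testis genes with high RNA levels and for the 2 ubiquitous genes with the highest, to show the letters that are compared next. Each is the 100 bases before a start in RefSeq (GRCh38.p14), on the strand of the gene and 5′ to 3′. MAGEA12 is read from chrX:152733657-152733756 on the plus strand, and MAGEB2 from chrX:30215463-30215562 on the plus strand. MAGEC2 is read from chrX:142205291-142205390 and MAGEA6 from chrX:152769690-152769789, both on the minus strand. MAGED2 is read from chrX:54807645-54807744 on the plus strand, and MAGEF1 from chr3:184712065-184712164 on the minus strand. Capitals mark CGGATGT, a run of letters that includes the GGAT core bound by ETS factors.
MAGEA12: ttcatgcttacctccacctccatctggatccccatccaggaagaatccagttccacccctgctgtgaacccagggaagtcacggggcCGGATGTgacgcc
MAGEB2: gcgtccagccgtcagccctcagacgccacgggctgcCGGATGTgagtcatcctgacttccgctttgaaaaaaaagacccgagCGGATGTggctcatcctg
MAGEC2: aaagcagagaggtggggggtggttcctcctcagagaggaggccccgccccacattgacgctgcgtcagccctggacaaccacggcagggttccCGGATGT
MAGEA6: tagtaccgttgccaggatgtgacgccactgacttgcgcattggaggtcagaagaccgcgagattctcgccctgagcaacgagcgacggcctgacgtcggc
MAGED2: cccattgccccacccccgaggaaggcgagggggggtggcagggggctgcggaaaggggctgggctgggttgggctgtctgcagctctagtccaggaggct
MAGEF1: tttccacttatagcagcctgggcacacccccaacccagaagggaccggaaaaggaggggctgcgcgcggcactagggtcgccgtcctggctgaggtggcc

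In windows from 250 bases before to 50 bases after each start, CGGATGT was searched on both strands. It was found in 18 of 29 windows of the cancer-testis genes (62.1%), in 0 of 10 windows of the ubiquitous genes and in 1.66% of 22199 windows of all protein-coding genes. By gene, 12 of 21 cancer-testis genes held it in at least 1 window, against 2.14% of 15843 protein-coding genes. The letters CCGGAAG, a common ETS site, were found in 2 of 29 cancer-testis windows, 3 of 10 ubiquitous windows and 12.8% of all windows. The median window held 12 CpG in the cancer-testis genes, 16 in the ubiquitous genes and 21 in all protein-coding genes. Both runs of letters were chosen after the sequences were seen, and many MAGE genes arose by duplication and share sequence, so these shares are a description. No promoter entry was given for MAGEA1, MAGEA10, MAGEB17 and MAGEH1.

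RNA from the cancer-testis families was found at most of their TUs, but only a few of the genes made up most of it. At least 1 summed RNA-seq count was found at 23 of 25 cancer-testis TUs (92%) and 4 of 8 ubiquitous TUs (50%), against 85.0% of 18964 protein-coding TUs. At least 1 summed PRO-seq count was found at 18 of 25 cancer-testis TUs (72%) and 4 of 8 ubiquitous TUs (50%), against 88.1% of protein-coding TUs. The 8 ubiquitous TUs include MAGED4 and MAGED4B, copies in which no read can be placed uniquely, so the ubiquitous shares may be too low. On chromosome X, 80.8% of 803 protein-coding TUs had an RNA-seq count and 79.6% a PRO-seq count. With at least 10 summed counts, 16 cancer-testis TUs remained in RNA-seq (64%) and 12 in PRO-seq (48%), and 4 and 3 ubiquitous TUs. Over protein-coding TUs the shares were 62.5% and 73.5%, so the RNA-seq share of the cancer-testis TUs was at the background.

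Summed over the TUs, the cancer-testis families held 1085 ± 14.2 TPM of RNA (SD, n = 4 libraries) and the ubiquitous families 119.8 ± 4.41. The ratio lay between 8.56 and 9.62 in the 4 libraries, so the sums did not overlap, although single members of the families did. In PRO-seq, the sums were 497 ± 27.9 TPM and 142 ± 9.10 (SD, n = 2), with a ratio of 3.48 in one library and 3.52 in the other. MAGEA6, MAGEA12, MAGEC2, MAGEB2 and MAGEA1 held 91.6% of the cancer-testis RNA, and MAGED2 and MAGEF1 held 82.5% of the ubiquitous RNA. The median cancer-testis TU had 2.08 TPM of RNA and the median ubiquitous TU 3.03, close to the 2.67 of all protein-coding TUs. In PRO-seq the medians were 2.18 and 2.82 TPM, below the 8.04 of all protein-coding TUs. The median protein-coding TU of chromosome X, where all members but MAGEF1 lie, was lower, at 0.988 TPM of RNA and 1.95 TPM in PRO-seq. The ubiquitous medians take MAGED4 and MAGED4B as 0, although no read can be placed uniquely in them, so both medians may be too low.

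**Figure D1:**
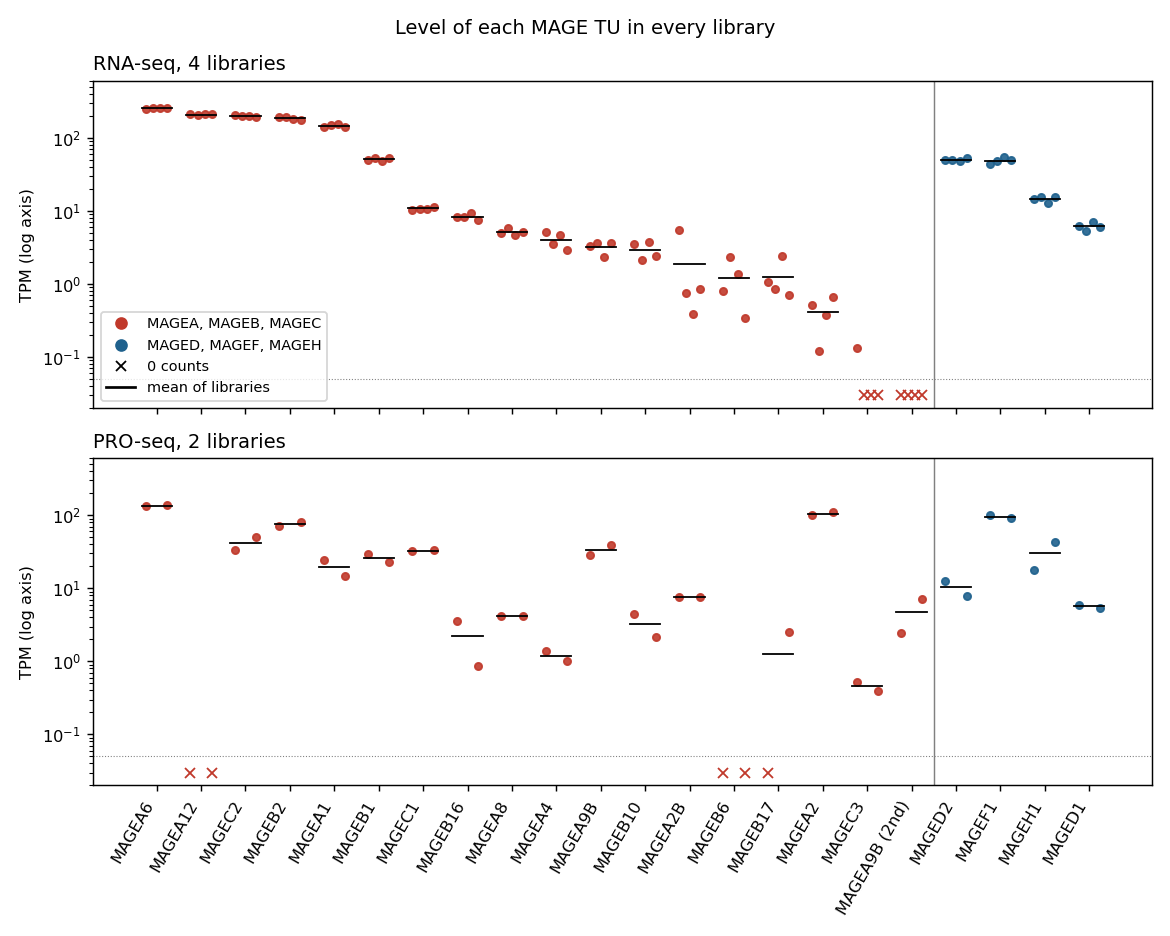
TPM on a log axis of the 22 MAGE TUs with at least 10 summed counts in either assay. Points are libraries, bars are means, and crosses below the dotted line are libraries with 0 counts (MAGEA9B (2nd) is the second counted transcript of MAGEA9B). The 5 highest RNA levels are those of cancer-testis genes, and MAGEA12 has RNA at 208 TPM with 0 PRO-seq counts.

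MAGEA6, which with TRIM28 forms a ubiquitin ligase that acts on the kinase AMPK, had the highest level of all members in both assays. Its transcript ENST00000329342 has 3 exons (1740 bases) and lies at chrX:151867214-151870825 in GRCh37. RNA-seq gave 250.2, 257, 254 and 253 TPM in libraries 1 to 4, a mean of 253 ± 2.73 (SD, n = 4), above 96.6% of protein-coding TUs. PRO-seq gave 135 and 137 TPM, from 91 and 94 reads. The 4 RNA-seq libraries of MAGEA6 lay above those of every other member.

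The level of MAGEA6 rests on fewer positions than its length, since MAGEA3 is nearly the same gene. Their coding sequences of 942 bases differ at 18 positions (98.1% identity), against 92.7% identity of MAGEA6 with MAGEA12, 91.7% with MAGEA2 and 83.1% with MAGEA1. Of the 75-base windows of the MAGEA6 exons, 55.8% occur once in GRCh37, and 41.3% also occur in MAGEA3. Over the TU body, 32.7% of windows occur once and 67.3% also occur in MAGEA3. The stretch of 60 coding bases with the most differences shows how few letters part them, from chrX:151869883-151869942 on the plus strand for MAGEA6 and chrX:151935535-151935594 on the minus strand for MAGEA3 (GRCh37), with the 4 differing bases in capitals.
MAGEA6: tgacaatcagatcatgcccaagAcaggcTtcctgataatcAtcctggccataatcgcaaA
MAGEA3: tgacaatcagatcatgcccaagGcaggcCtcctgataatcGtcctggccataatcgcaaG

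MAGEA12, which neighbours MAGEA6 in Xq28 and like it is read from 3 exons, had RNA but no PRO-seq count. RNA-seq gave 209, 204, 210.2 and 209.8 TPM, from 5066 reads in all, a mean of 208 ± 3.06 (SD, n = 4). Both PRO-seq libraries had 0 reads, which allows up to 1.97 TPM summed over the libraries, counting error only. The noncoding gene CSAG4 covers 97.6% of the MAGEA12 body on the same strand but 1.84% of its exons. HTSeq by default leaves out a read that falls in more than 1 counted feature, so the 0 cannot be read as absence of transcription of MAGEA12, and the part of the overlap in it was not tested. CSAG4 itself had 49 and 82 PRO-seq reads and 19 RNA-seq reads in all. No ratio is given for MAGEA12. MAGEA10, whose body lies to 98.7% under another gene on the same strand, likewise had 3 RNA-seq reads and 0 PRO-seq reads.

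MAGEC2, which binds TRIM28 and raises its ligase activity, followed. RNA-seq gave 206, 197, 198 and 196 TPM (199 ± 4.47, SD, n = 4), and PRO-seq 33.7 and 50.6 TPM from 17 and 26 reads. The RNA-seq libraries of MAGEC2 overlapped neither those of MAGEB2 below it nor those of MAGEA6, but did overlap those of MAGEA12. MAGEC1, its neighbour with a long repeat-rich coding exon, was much lower in RNA, at 10.4, 10.7, 10.7 and 11.4 TPM, while PRO-seq gave 31.9 and 33.9 TPM. So the RNA level of MAGEC2 was 18.5 times that of MAGEC1, while the PRO-seq levels stood at a ratio of 1.28. MAGEC3 had 1 RNA-seq read and 14 PRO-seq reads over a TU body of 58517 bases (0.529 and 0.389 TPM).

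MAGEB2 gave 195, 194, 182 and 173 TPM in RNA-seq (186 ± 10.1, SD, n = 4) and 70.2 and 79.6 TPM in PRO-seq. MAGEA1, the member by which the family was first identified as a tumour antigen, gave 143, 149, 154 and 143 TPM in RNA-seq (147 ± 5.31, SD, n = 4). Its PRO-seq level was low for this RNA, at 24.7 and 14.8 TPM from 23 and 14 reads. MAGEB1 gave 49.9, 52.5, 48.2 and 52.9 TPM in RNA-seq (50.9 ± 2.19, SD, n = 4) and 29.6 and 22.8 TPM in PRO-seq. MAGEB1 therefore lay at the level of the highest ubiquitous genes, MAGED2 and MAGEF1, and its RNA-seq libraries overlapped theirs.

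The other cancer-testis members with at least 10 counts had RNA at 8.22 TPM or less. MAGEB16 gave 8.15, 8.14, 9.26 and 7.50 TPM of RNA and 3.52 and 0.863 TPM in PRO-seq, the latter from 4 and 1 reads. MAGEA8 gave 4.99, 5.77, 4.71 and 5.21 TPM of RNA and 4.22 and 4.14 TPM in PRO-seq. MAGEA4, a target of engineered T cells, gave 5.07, 3.53, 4.66 and 2.90 TPM of RNA and 1.37 and 1.01 TPM in PRO-seq. The RNA-seq libraries of MAGEA8 and MAGEA4 overlapped, and neither stood apart from its neighbour in the order of levels.

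MAGEB10 gave 3.56, 2.12, 3.72 and 2.39 TPM of RNA and 4.41 and 2.16 TPM in PRO-seq. MAGEB6 gave 0.792, 2.38, 1.38 and 0.342 TPM of RNA, and it had no PRO-seq read. MAGEB17 gave 1.08, 0.850, 2.40 and 0.698 TPM of RNA, and its 2 PRO-seq reads were both in library 2. From MAGED1 downwards in the order of RNA levels the libraries of neighbouring members overlapped, except that those of MAGEB17 lay above those of MAGEA2. MAGEB17 is overlapped over 80.1% of its body by a gene on the other strand, and since no source used here says whether strand was used in counting, its reads cannot be assigned with certainty.

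MAGEA2, MAGEA2B and MAGEA9B have copies so close that most reads fit 2 places. The coding sequences of MAGEA2 and MAGEA2B are identical over 942 bases, as are those of MAGEA9B and MAGEA9 over 945. Of their 75-base exon windows, 2.19% occur once for MAGEA2, 0% for MAGEA2B and 0% for MAGEA9B, and of their body windows 2.54%, 2.54% and 4.54%. Their values are therefore uncertain in both assays. MAGEA2 gave 0.508, 0.120, 0.378 and 0.659 TPM of RNA but 99.8 and 110.5 TPM in PRO-seq. MAGEA2B gave 5.55, 0.751, 0.393 and 0.857 TPM of RNA, with 42 of its 55 reads in library 1, and 7.68 and 7.53 TPM in PRO-seq. MAGEA2 thus ranked second among members in PRO-seq and 20th in RNA-seq, while its copy had more RNA and less PRO-seq signal. MAGEA9B gave 3.26, 3.63, 2.32 and 3.68 TPM of RNA and 28.2 and 38.7 TPM in PRO-seq, and a second counted transcript that the annotation names MAGEA9B had 0 RNA-seq reads and 3 and 9 PRO-seq reads. This second transcript has another gene identifier (ENSG00000123584.7, against ENSG00000267978.6_8) and may belong to MAGEA9 in the build the reads were counted on, so its name is uncertain.

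The other 7 cancer-testis TUs had between 0 and 6 RNA-seq reads and at most 2 PRO-seq reads. They were MAGEA10, MAGEA11, MAGEB3, MAGEB4, MAGEB5, MAGEB6B and MAGEB18, of which MAGEB5 had no read in any library. The 3 counts that a 0 allows correspond to 0.181 TPM of RNA and 5.21 TPM of PRO-seq for MAGEB5. The counted transcript of MAGEA11, a coregulator of the androgen receptor, is of the retained-intron type, so its level may differ from that of the coding transcript.

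Among the ubiquitous members, MAGED2, MAGEF1, MAGEH1 and MAGED1 were expressed and the other 4 had no count. MAGED2, whose loss in humans causes a salt-losing kidney disorder before birth, gave 49.9, 49.5, 47.8 and 53.5 TPM of RNA (50.2 ± 2.41, SD, n = 4) and 12.8 and 7.83 TPM in PRO-seq. MAGEF1, a single-exon gene whose protein directs the ligase NSMCE1 to the iron-sulfur assembly factor MMS19, gave 43.4, 48.6, 54.2 and 49.0 TPM of RNA and 99.3 and 92.0 TPM in PRO-seq. The RNA-seq libraries of both genes overlapped, while in PRO-seq MAGEF1 was the higher of the pair in both libraries. The PRO-seq level of MAGEF1 rests on 35 reads over the 701 bases left of its TU.

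MAGEH1 gave 14.5, 15.7, 12.8 and 15.8 TPM of RNA, and its PRO-seq level of 17.6 and 43.1 TPM rests on 2 and 5 reads over 440 bases. MAGED1, which binds the low-affinity neurotrophin receptor and is read from 13 exons (chrX:51546103-51645450 in GRCh37), gave 6.28, 5.32, 6.95 and 6.05 TPM of RNA and 5.86 and 5.44 TPM in PRO-seq. Its 290 PRO-seq reads are the most of any member, but they spread over a TU body of 98348 bases, and it ranked 13th by PRO-seq level. MAGEE1 and MAGEE2, whose windows are unique to 100%, had no read in any library, which allows up to 0.0607 and 0.0972 TPM of RNA. MAGED4 and MAGED4B are copies without a single unique window, so that their 0 says nothing of their expression.

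In the order of RNA levels, 19 pairs of neighbours were compared among the 20 members with at least 10 RNA-seq reads, and 9 pairs did not overlap between libraries. No pair could pass the threshold, since the exact sign-flip permutation test over 4 libraries cannot go below a two-sided p of 0.13, or 0.5 over 2 libraries. In PRO-seq, 9 of 14 pairs did not overlap. By position, 7 groups on chromosome X held members within 500 kb of each other, and 8 members on X stood alone. The Xq28 group of MAGEA6, MAGEA2B, MAGEA12 and MAGEA2 summed to 464 TPM of RNA, of which MAGEA6 and MAGEA12 gave nearly all. The group of MAGEB2, MAGEB3, MAGEB4 and MAGEB1 summed to 239 TPM, and MAGEB3 and MAGEB4 between MAGEB2 and MAGEB1 had 4 and 2 RNA-seq reads. The Xp group of MAGEB18, MAGEB6B, MAGEB6 and MAGEB5 summed to 1.61 TPM, with 0 PRO-seq reads.

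Set beside the upstream letters shown above, the 12 cancer-testis genes with CGGATGT had a median of 4.64 TPM of RNA (range 0.0873 to 208), and 10 of them were above 1 TPM. The 9 genes without it had a median of 0.141 TPM (range 0 to 253), and 3 of them, MAGEA6, MAGEB16 and MAGEB6, were above 1 TPM. So the exact letters were present at most of the expressed genes but absent at MAGEA6, the highest of all. The bases shown above for MAGEA6 do hold AGGATGT, which differs from CGGATGT in its first letter and keeps the GGAT core. Near matches were not counted in any group. The starts were not matched to those of the counted transcripts, and MAGEB1, for example, lacked the letters at another of its starts. This comparison is a description over related genes, with no test.

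**Figure D2:**
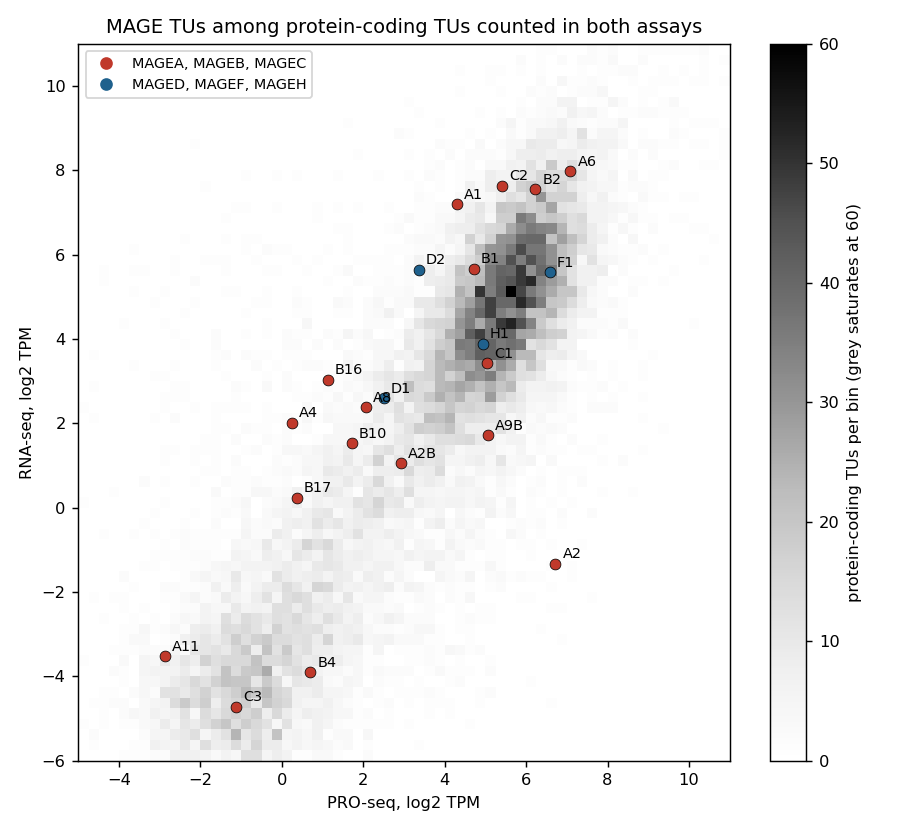
RNA-seq against PRO-seq level (log2 TPM, counts summed over the libraries of an assay) of the 21 MAGE TUs counted in both assays, on the density of protein-coding TUs counted in both (grey, TUs per bin). MAGEA6, MAGEB2, MAGEC2 and MAGEA1 lie near the top of the cloud, MAGED2, MAGEB16 and MAGEA4 to its upper left, and MAGEA2 far to the lower right.

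The study takes the ratio of RNA-seq to PRO-seq level as a measure of relative RNA stability, and the same ratio was tested for each TU. The ratio is given as log2 relative to the median mRNA, so that 0 is a typical mRNA, with edgeR's quasi-likelihood test and Benjamini-Hochberg adjustment over 21100 TUs with at least 1 count in each assay. Of 33 members, 21 could be tested, since 12 had 0 counts in 1 or both assays. The ratio was above the median mRNA for 11 members and below it for 2, and 8 did not pass. Over all TUs tested, 31.6% were above and 37.3% below, and over protein-coding TUs 42.5% and 32.8%. The members counted in both assays had a median log2 ratio of 1.14, against 0.03 for protein-coding TUs and -0.50 for all TUs. Above were 9 of 17 cancer-testis TUs (median 1.14) and 2 of 4 ubiquitous TUs (median 0.86).

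MAGEA1 had the highest ratio, at 4.19 ± 0.15 on the log2 scale (SE, edgeR, adjusted p = 6.80e-174), 18.3 times the median mRNA. MAGED2, of the ubiquitous families, followed at 3.58 ± 0.17 (edgeR adjusted p = 1.45e-99) and MAGEC2 at 3.53 ± 0.15 (edgeR adjusted p = 1.39e-129), so the highest ratios came from both kinds of family. The SEs of MAGED2 and MAGEC2 overlap. MAGEB2, MAGEB1 and MAGEA6 lay at 2.61 ± 0.10, 2.26 ± 0.13 and 2.20 ± 0.09, with the smallest SEs among the cancer-testis members. When member lengths counted only the windows that occur once, the ratio of MAGEA6 was 1.43 ± 0.10 and that of MAGEA4 2.32 ± 0.50, in place of 3.02 ± 0.48.

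MAGEB16 (3.18 ± 0.48), MAGEA4 and MAGEA8 (1.61 ± 0.48) rest on 5, 7 and 8 PRO-seq reads, and their SEs are correspondingly wide. Without PRO-seq library 1 MAGEB16 was at 4.49 ± 0.81, and without library 2 at 2.44 ± 0.59. MAGED1 lay at 1.40 ± 0.15 and MAGEB10 at 1.11 ± 0.37 (edgeR adjusted p = 0.00455). MAGEB10 lost the call without PRO-seq library 2, which left 0.63 ± 0.46 (edgeR adjusted p = 0.227), and when at least 10 counts were required in each assay (0.58 ± 0.37, edgeR adjusted p = 0.139). Without PRO-seq library 1 it was at 1.74 ± 0.55. Its 24 PRO-seq reads fell 16 and 8 in the libraries.

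The 2 members below the median mRNA were both near-identical copies, MAGEA2 at -6.66 ± 0.31 (edgeR adjusted p = 4.32e-102) and MAGEA9B at -2.04 ± 0.27 (edgeR adjusted p = 5.47e-14). MAGEA2B, the copy of MAGEA2, was at -0.59 ± 0.54 and did not pass, but without RNA-seq library 1 it was at -2.20 ± 0.72 and passed (edgeR adjusted p = 0.00394). Of the 18 tested members with at least 10% unique exon windows, 11 were above, 0 below and 7 did not pass by edgeR. Over all tested protein-coding TUs, 42.5% were above and 32.8% below. The 10% cut was set after the data were seen and leaves out both members below, so the 0 follows from it. At an unadjusted p of 0.05, 0 of these 18 members were below by edgeR, and 0 were below by DESeq2 after adjustment. MAGEC1, whose windows are nearly all unique, was below under the stricter minimums given next. The share of unique windows is low at MAGEA2 and MAGEA9B, and its part in their ratios was not tested.

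MAGEC1 was at -0.31 ± 0.19, MAGEF1 at 0.32 ± 0.25 and MAGEH1 at 0.25 ± 0.57, none of which passed. MAGEC1 was below the median mRNA, at -0.85 ± 0.19 (edgeR adjusted p = 7.76e-05), when at least 10 counts were required in each assay. It was at -0.97 ± 0.18 (edgeR adjusted p = 1.56e-05) under the study's minimums of 10 TPM (PRO-seq) and 1 TPM (RNA-seq). These minimums moved the median mRNA, and with it nearly every ratio alike. MAGEF1 and MAGEH1 are short TUs, and their values depended on the length assumed for PRO-seq. With 500 bp removed in place of 1000 bp, MAGEF1 was at 1.05 ± 0.23 (edgeR adjusted p = 1.19e-05) and MAGEH1 at 1.30 ± 0.51 (edgeR adjusted p = 0.0156), both above the median mRNA. MAGEB17, MAGEA11, MAGEC3 and MAGEB4 had SEs between 1.05 and 2.21, with 1 to 23 reads in an assay, and allow no direction.

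**Figure D3:**
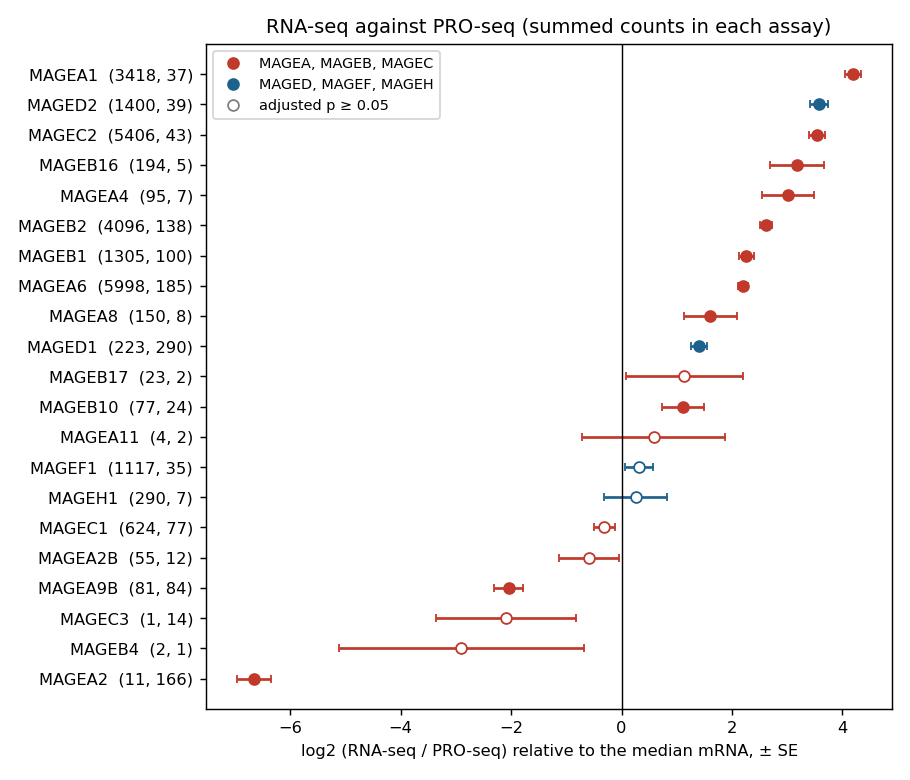
Log2 ratio of RNA-seq to PRO-seq level relative to the median mRNA (points, with edgeR SE as bars) for the 21 MAGE TUs tested, with the summed RNA-seq and PRO-seq counts of each in brackets. Filled points passed an adjusted p of 0.05. MAGEA1, MAGED2 and MAGEC2 lie above 3.5 and MAGEA2 at -6.66.

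The partners of MAGE proteins were expressed in these cells. Of 8 listed partners, all had counts in both assays, 6 had a ratio above the median mRNA (against 42.5% of protein-coding TUs), LNX1 (named after its values were seen, -0.32 ± 0.15) was below it, and TRIM27 (-0.04 ± 0.05) did not pass. TRIM28, the ligase bound by MAGEA6 and MAGEC2, had 392.7 TPM of RNA (371 to 412 over the libraries) and a ratio of 2.39 ± 0.06. TRIM27, the partner of MAGEL2, had 135 TPM, the deubiquitinase USP7 94.4 TPM and PRKAA1, the AMPK subunit degraded through MAGEA6 and TRIM28, 47.2 TPM.

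The SMC5/6 complex contains NSMCE3, a relative of the MAGE genes with a MAGE homology domain. NSMCE3 had 10.5 TPM of RNA (689 reads) and no PRO-seq read, so it was not tested. Of the 7 listed genes of the complex, all had at least 10 RNA-seq reads, against 62.5% of protein-coding TUs, and 5 had PRO-seq reads, against 88.1%. These 5 were above the median mRNA, with a median log2 ratio of 2.74, against 42.5% of tested protein-coding TUs and a median of 0.03. NSMCE2 (142 TPM, ratio 3.83 ± 0.06) and NSMCE1 (112 TPM, ratio 3.54 ± 0.08), the ligase subunits of the complex, had the highest ratios of these 5. In RNA level, SMC6 (139 TPM, ratio 2.74 ± 0.05) lay between them. The other listed MAGE relative, NDN, had no counted transcript that matched and was not analysed here.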

How the data were processed

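The data were 4 libraries of total RNA and 2 of nascent RNA (PRO-seq) from K562. The authors trimmed reads with Cutadapt, aligned them with HISAT2 to GRCh38 in single-end mode and deposited raw HTSeq counts per transcript, without normalization. Tool versions and strand use: not given in the sources used here. RNA-seq counts cover exons, and PRO-seq counts leave out 500 bases at each TU end per the methods, whereas their label names 500 bp and no side. Rows that name no TU (66.5% to 68.6% of RNA-seq records, 86.5% and 88.6% of PRO-seq records) were left out. Reads that aligned to several places were 24.5% to 28.0% of RNA-seq records and 2.73% and 2.79% of PRO-seq records. Records left out for low alignment quality numbered 11242789 and 13063456 in PRO-seq and 0 in every RNA-seq library.

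The annotation used was GENCODE lifted to GRCh37, joined by transcript identifier (88.1% of 42371 matched). Lengths, coordinates, overlaps and unique windows are those of GRCh37, and 75-base windows stand in for the reads. The Xq28 block with MAGEA6 and MAGEA12 has opposite strands in GRCh37 and GRCh38. Promoters came from RefSeq. TPM was computed per library and from summed counts. Intervals and floors of 3 counts cover counting error only, as reads carry no molecular identifier and can be copies.

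The ratio was tested with edgeR (version 4.0.16, R version 4.3.3) on the counts with TMM and length offsets, centred on the median mRNA. DESeq2 (version 1.42.0) was an alternative. On simulated counts for this comparison (19710 TUs), edgeR found 65.6% of the 195 TUs given a log2 change of 1 and made 3 false calls. The other simulated TUs had equal levels in both assays, a fixed spread and exact lengths. The simulation therefore does not measure false calls in the real data. Other steps used Python 3.11.15.

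The members and lists were chosen with earlier results of these data known. Members with at least 10 summed counts in either assay are given by library and the others by range. Of other lists, at most the 5 genes with the highest RNA level are named. Alternatives covered normalization, count and TPM minimums, PRO-seq length, each library left out, a replicate block, the centre and a 2-fold threshold. Lengths over unique windows, and levels without members of under 10% unique windows, were added after seeing the data. Protein sequences were not analysed here.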

Additional observations from a re-analysis of the deposited data

Results flagged for a closer look

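The RNA-seq level of MAGEA2B was set apart by library 1, which held 5.55 TPM against 0.393 to 0.857 TPM in the other 3 libraries. The gap to the nearest library was 0.910 of the range, above the limit of Dixon's test for 4 samples. This was 1 of 20 members tested, and chance sets apart about 1 in 20 groups. MAGEA2B has no unique exon window of 75 bases.

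Counts were also found at 3 noncoding genes named after MAGE genes, which are no members. MAGEA6-DT, a divergent transcript, had 162 RNA-seq and 204 PRO-seq reads (12.3 and 18.1 TPM). MAGEA4-AS1 had 6 RNA-seq and 6 PRO-seq reads, and MAGEA8-AS1 had 7 RNA-seq reads. No source used here says whether strand was used in counting, so reads of antisense genes cannot be assigned with certainty.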

How the results depend on the processing

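The 11 members above and 2 below the median mRNA gave the same numbers with DESeq2, library totals, the close RNA-seq libraries summed and lengths over unique windows. With the replicate block, 11 were above and 2 below, of 6376 and 6351 TUs. Same-numbered libraries did not deviate together (Pearson r = -0.0112 across 13822 TUs, which are not independent), so they share only a number. Fewer members, 13, were tested with at least 10 counts in each assay, and 7 were above and 3 below (MAGEA2, MAGEA9B and MAGEC1). Of the 12946 TUs tested there, 4981 were above and 6278 below. Under the TPM minimums 6 of 10 members were above and 2 below, MAGEA9B and MAGEC1, as MAGEA2 was not tested. Of the 10053 TUs tested there, 4019 were above and 5066 below. Leaving out a library gave 10 to 11 members above and 2 to 3 below, with 6261 to 6494 TUs above and 6909 to 7496 below. Centred on all TUs, which moved the ratios by a median of 0.58, 8272 TUs were above and 5684 below, against 6671 and 7880, and 12 and 2 members. The count and TPM minimums moved the ratios by -0.54 and -0.66 and no minimum by 0.23. For a difference of more than 2-fold, 9 members were above and 2 below, and of 21100 TUs 4207 were above and 5260 below.

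Ratios that changed sign belonged to members that did not pass in the main test. MAGEA11 was at -0.48 with the replicate block, -0.89 without RNA-seq library 3 (up to 0.96 without other libraries) and -0.26 without PRO-seq library 1. These cases rest on at most 4 reads in an assay. MAGEC1 was at 0.27 centred on all TUs. MAGEF1 was at -0.22 and -0.34 under the count and TPM minimums, and MAGEH1 at -0.40 under the TPM minimum and -0.21 without PRO-seq library 1 (up to 0.98 without library 2). Except for the last, these shifts of MAGEC1, MAGEF1 and MAGEH1 are those of the centre given above, which move nearly all TUs alike.

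Above 1 TPM of RNA, 15 cancer-testis members were detected (60%, against 55.5% of protein-coding TUs). As CPM without length, the sums were 892 and 64.4 for the cancer-testis members in RNA-seq and PRO-seq, 102 and 26.1 for the ubiquitous members, and the PRO-seq ratio was 2.47. With 500 bp removed, the ubiquitous PRO-seq sum was 103 TPM and the ratio 5.03. Without members of under 10% unique windows, the cancer-testis PRO-seq sum was 346 TPM and the ratio 2.44.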

Other observations

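Some genes of other cancer-testis families were also transcribed in these cells. Of 60 listed genes of other X-linked cancer-testis families (GAGE, PAGE, XAGE, SSX, CTAG, SPANX, CT45, CT47 and CSAG, with PASD1 and LUZP4), 34 had RNA-seq counts and 25 PRO-seq counts, and 20 were above 1 TPM of RNA. Over protein-coding TUs the shares were 85.0%, 88.1% and 55.5%, so the listed genes were detected less often than the background. Reads that aligned to several places were left out of the counts. Unique windows were computed for MAGE members only, so the shares of the listed genes may be too low. The summed RNA of the listed genes was 1252 TPM, close in size to that of the MAGE cancer-testis families. PAGE5 led with 433 TPM, followed by CTAG2 (155), PAGE1 (151), SSX1 (116) and CT45A10 (113). Of 24 tested, 13 had an RNA-seq to PRO-seq ratio above the median mRNA by edgeR and 5 below it, against 42.5% and 32.8% of all protein-coding TUs. The latter, named after their values were seen, were XAGE1B, SSX2, SSX4B, SSX2B and SSX4, and several of these families hold near-identical copies.

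Of 10 listed autosomal cancer-testis genes, 5 were above 1 TPM of RNA, against 55.5% of protein-coding TUs. Of 8 tested, 4 had a ratio above the median mRNA and 2, TEX15 and TEX14, below it, against 42.5% and 32.8% of protein-coding TUs. PRAME, a tumour antigen that serves as a substrate receptor of a ubiquitin ligase, had 1898 TPM (1884 to 1920 over the 4 libraries) and a log2 ratio of 1.77 ± 0.04. The chromatin genes ATAD2 and CTCFL had 124 and 104 TPM, with ratios of 1.38 ± 0.04 and 1.07 ± 0.06. TEX15 had 8.85 TPM and a ratio of -0.17 ± 0.07 (edgeR adjusted p = 0.0307). TEX14, named after its values were seen, had 22 RNA-seq and 1726 PRO-seq reads and a ratio of -4.92 ± 0.18.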
